A study of Mus musculus with 8 samples.

Results

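The 7 genes Tcf7, Lef1, Bach2, Id3, Klf2, Bcl6 and Myb encode transcription factors of the memory fate of CD8+ T cells. At their loci the listed H3K27ac intervals were compared between mouse CD8+ T cells that had received EnPGC-1 and cells that had received DMSO. A locus is the gene body with 50 kb on each side, on mm10. The 7 loci span 1262.65 kb, and all intervals that touch them were taken from both deposited peak lists. They numbered 291 of 253423 intervals with EnPGC-1 and 84 of 81522 with DMSO. All 7 genes were found among 21631 protein-coding genes on the chromosomes of the lists.

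The cells were primary CD8+ T cells of C57BL/6 mice, purified from lymph node and spleen, given anti-CD3 and anti-CD28 antibodies, and kept for 48 h with EnPGC-1, a compound that the labels class among PIPs, or with its vehicle DMSO. H3K27ac, acetylation of histone H3 at lysine 27, marks active promoters and enhancers and was mapped by ChIP-seq. Of the 8 samples in 5 groups, 2 were H3K27ac ChIP from EnPGC-1-treated cells, 1 was input DNA from EnPGC-1-treated cells, 2 were H3K27ac ChIP from DMSO-treated cells, 2 were IgG ChIP from DMSO-treated cells and 1 was input DNA from DMSO-treated cells. Each treatment has 1 peak list, so no value has a replicate and no difference was tested. Values given with EnPGC-1 or with DMSO are those of the list of that treatment. The sources used here do not give the age, number or pooling of the mice, and the depth of each sample is unknown. The whole EnPGC-1 list covered 165 Mb and the whole DMSO list 41.3 Mb, a ratio of 4.00, against which each ratio of covered bases at a locus is read. Covered bases are genome positions inside a listed interval, and their number moves with how much was called in each list.

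After infection or vaccination most CD8+ T cells become short-lived effector cells, and a minority keep the capacity to renew themselves and persist as memory cells. TCF-1, encoded by Tcf7, and the related LEF-1 are DNA-binding factors of naive, stem-like and memory T cells. BACH2 and BCL6 are repressors that restrain effector programmes, BCL6 in mutual opposition with BLIMP-1. ID3 binds E proteins and keeps them off DNA, KLF2 maintains quiescence and the receptors for recirculation through lymph nodes, and c-Myb, encoded by Myb, supports stem-like cells. BACH2, BCL6 and c-Myb also act in B cells or blood progenitors.

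The starts of 6 of the 7 genes had an EnPGC-1 interval within 1 kb, and those of 3 had a DMSO interval. Among 17274 protein-coding genes with a RefSeq start the shares were 67.3% with EnPGC-1 and 33.5% with DMSO, the background against which these counts are read. Tcf7, Klf2 and Myb were marked at the start in the EnPGC-1 list alone (3 of 7 genes, 36.8% of all genes). With a window of 2500 bp all 3 were marked in the DMSO list as well, so that none was left as marked in the EnPGC-1 list alone. The share of all genes was not counted with that window. Lef1, Id3 and Bcl6 were marked in both lists (3 of 7 genes, 30.5% of all genes). None was marked in the DMSO list alone (0 of 7 genes, 3.09% of all genes), and Bach2 was marked in neither. The RefSeq promoter windows of 4 of these starts, from 250 bases before the start to 50 bases from it on, show where the intervals begin. They were picked by this outcome: an EnPGC-1 interval reaches into all 4 and a DMSO interval only into that of Id3. Of the windows not shown, that of the inner Bcl6 start lay wholly in intervals of both lists. Those of the outer Tcf7 start, of Myb, of Bach2 and of all 4 Lef1 starts had 0 bases in either list. Each is written 5′ to 3′ along the gene on GRCm38.p6, the assembly behind mm10. The Tcf7 window, for the inner of its 2 listed starts, is chr11:52282546-52282845 on the minus strand. The Klf2 window is chr8:72318812-72319111 on the plus strand. The Id3 window is chr4:136143572-136143871 on the plus strand. The Bcl6 window, for the outer of its 2 listed starts, is chr16:23988803-23989102 on the minus strand. Capitals mark matches on either strand to GGGCGG (SP/KLF), TGTTTAC (FOXO) and TATAAA (the core element bound by TBP).
Tcf7: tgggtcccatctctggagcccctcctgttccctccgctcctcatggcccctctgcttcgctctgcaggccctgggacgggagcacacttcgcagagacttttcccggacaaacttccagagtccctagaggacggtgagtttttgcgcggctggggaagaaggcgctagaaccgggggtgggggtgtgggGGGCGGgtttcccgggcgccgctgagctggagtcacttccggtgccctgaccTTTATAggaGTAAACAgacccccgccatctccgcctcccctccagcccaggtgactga
Klf2: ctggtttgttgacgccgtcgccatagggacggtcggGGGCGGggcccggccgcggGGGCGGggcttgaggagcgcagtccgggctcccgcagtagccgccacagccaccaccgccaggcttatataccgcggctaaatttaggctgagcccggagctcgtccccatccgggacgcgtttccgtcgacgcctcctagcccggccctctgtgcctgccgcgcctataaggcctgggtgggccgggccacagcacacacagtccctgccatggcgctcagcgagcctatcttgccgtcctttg
Id3: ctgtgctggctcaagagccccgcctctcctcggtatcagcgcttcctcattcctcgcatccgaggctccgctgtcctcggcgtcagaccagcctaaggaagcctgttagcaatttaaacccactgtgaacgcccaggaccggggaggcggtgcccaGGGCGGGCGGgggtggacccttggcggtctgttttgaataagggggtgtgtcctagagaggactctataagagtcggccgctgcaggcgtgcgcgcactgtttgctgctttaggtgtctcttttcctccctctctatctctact
Bcl6: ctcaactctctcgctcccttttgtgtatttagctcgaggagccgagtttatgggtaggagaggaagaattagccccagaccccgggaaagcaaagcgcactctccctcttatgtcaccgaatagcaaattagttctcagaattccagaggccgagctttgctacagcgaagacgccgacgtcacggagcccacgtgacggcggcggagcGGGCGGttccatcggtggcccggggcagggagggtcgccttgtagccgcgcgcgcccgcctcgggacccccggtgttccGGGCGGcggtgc

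Bases 7 to 300 of the Tcf7 window lay in an EnPGC-1 interval, and 0 of its bases in a DMSO interval. At Klf2 the EnPGC-1 interval took in bases 172 to 300, which hold the start itself, and the DMSO list again 0 bases. At Bcl6 it took in bases 215 to 300, against 0 bases of the DMSO list. At Id3 the EnPGC-1 interval covered bases 12 to 300 and the DMSO interval bases 91 to 300, so both lists covered the start of this gene. The GGGCGG pair of Id3, beginning at bases 157 and 161 and sharing 2 letters, thus lay inside the intervals of both lists.

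The 12 promoter windows of the 7 genes had GC contents of 43.7% to 76.3%, beside a median of 56.7% over 21045 windows of protein-coding genes. The outer Tcf7 window and the Myb window were richest in GC, at 76.3% and 75.0%. GGGCGG, the box of SP and KLF factors, was found in 9 of the 12 windows and in 46.7% of all windows. The FOXO letters TGTTTAC were found in the windows of Myb and of the inner Tcf7 start and in 3.03% of all windows. TATAAA was found in 2 windows, against 12.7% of all, and CANNTG, the E-box bound by the E proteins that ID3 holds, in 8, against 69.0%. GGAA, the ETS core, was found in 12 of 12 and in 95.7% of all. ATCAAAG (TCF/LEF), TGTGGT (RUNX) and TGANTCA (AP-1) were found in none of the 12 windows, and in 3.25%, 14.7% and 7.04% of all. Motifs were read on both strands. The windows of the 2 outer Lef1 starts overlap each other, so the 12 are not independent.

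At Tcf7 the EnPGC-1 list placed intervals on both sides of the outer start, at position 52283014. One ran from 52281524 to 52282839, which also holds the inner start at 52282595, and the other from 52283884 to 52285466. The DMSO list had 1 interval near it, from 52284410 to 52284714, which lay 1396 bp upstream of the outer start. Within 5 kb of that start the EnPGC-1 list covered 4983 bases and the DMSO list 305.

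Lef1 has 4 listed starts. An EnPGC-1 interval from 131110935 to 131111935 began 638 bp after the first start at 131110297, and a DMSO interval from 131111682 to 131112334 began 1385 bp after it. The DMSO call at Lef1 therefore rests on the third start, at 131112791, from which that interval lay 457 bp away. Within 5 kb of the first start the EnPGC-1 list covered 2401 bases and the DMSO list 2443, so here the DMSO list covered slightly more.

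At Id3 an EnPGC-1 interval from 136143583 to 136144505 and a DMSO interval from 136143662 to 136144708 both lay over the start. Within 5 kb of it the intervals covered 1839 bases with EnPGC-1 and 1047 with DMSO. At Klf2 an EnPGC-1 interval from 72318983 to 72321091 spanned the start and most of this short gene. The DMSO interval, from 72320162 to 72320918, lay inside the gene, 1100 bp after the start, just outside the 1 kb window. Within 5 kb the EnPGC-1 list covered 3102 bases at Klf2 and the DMSO list 1411.

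Bcl6 differed between its starts. Over the outer start at 23988852 lay an EnPGC-1 interval from 23987519 to 23988888, whereas the nearest DMSO interval was 7184 bp away. Over the inner start at 23981283 both lists had an interval, from 23981002 to 23981562 with EnPGC-1 and from 23981086 to 23981668 with DMSO. The DMSO interval had the highest score of its locus, 5.77. At Myb the intervals of the lists lay side by side inside the gene, 867 bp after the start with EnPGC-1 and 1652 bp after it with DMSO, with 267 bases between them. The single listed start of Bach2, position 32417435, lies far inside the gene. The interval nearest to it was 9057 bp away with EnPGC-1 and 6533 bp away with DMSO. The 5′ end of the whole Bach2 gene, at 32238413, had an EnPGC-1 interval at 3320 bp and a DMSO interval at 1063 bp.

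**Figure D1:**
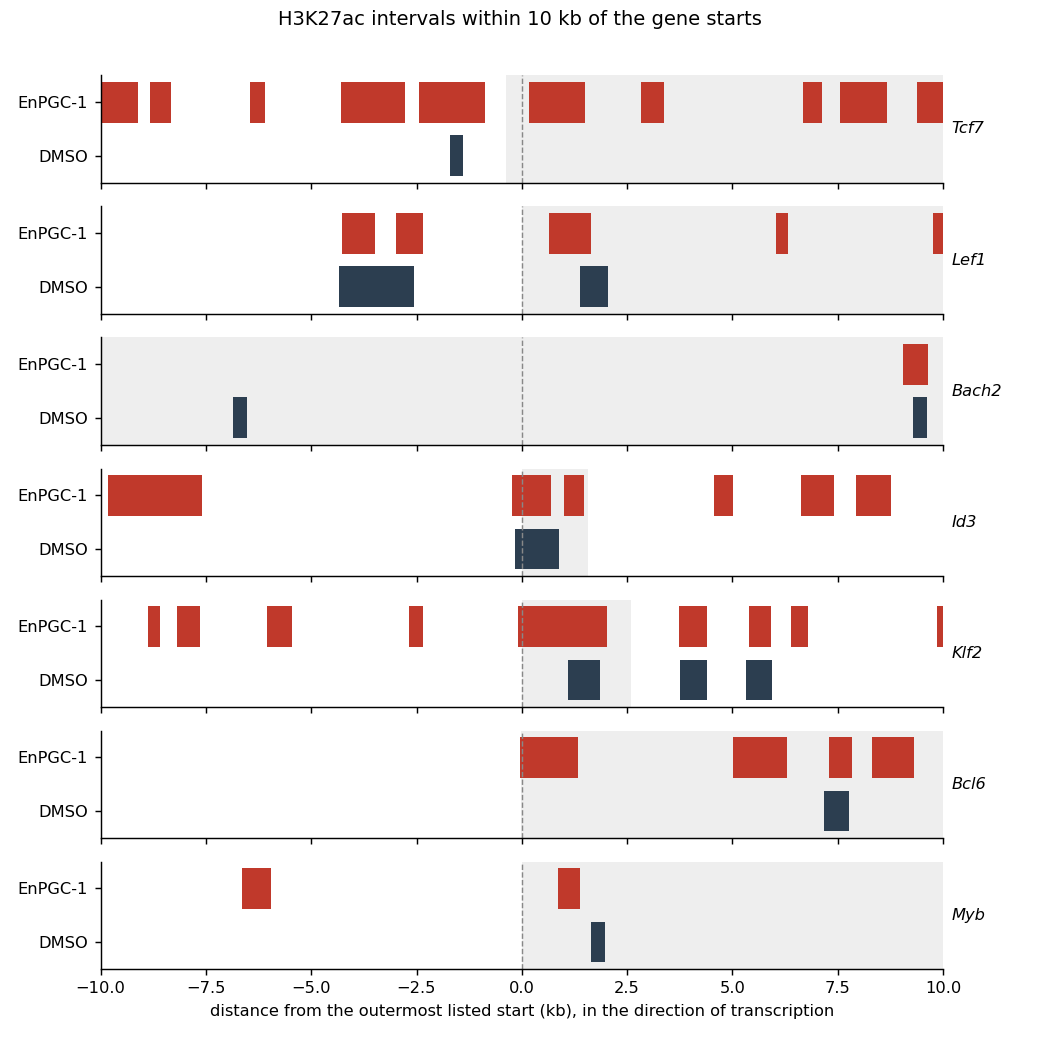
Listed H3K27ac intervals within 10 kb of the outermost listed start (dashed line) of each gene, with the EnPGC-1 list above the DMSO list and the gene body in grey. The x axis is distance in kb in the direction of transcription. Only at Id3 did intervals of both lists lie over this start, and at Bach2 both lists were empty within 5 kb of it.

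Over the whole loci the EnPGC-1 list held more intervals and more covered bases at every one of the 7 genes. Summed over the loci it covered 191860 bases (15.2%) and the DMSO list 43447 bases (3.44%), a ratio of 4.42. The mean width of the intervals was 664 bp with EnPGC-1 and 517 bp with DMSO. Their mean score was 3.91 with EnPGC-1, beside 3.80 in that whole list, and 2.59 with DMSO, beside 2.47 in that whole list. The number of intervals was 3.46 times as high in the EnPGC-1 list, with a 95% exact interval of 2.71 to 4.47 that covers counting error only. All 7 genes had at least 2 times as many covered bases in the EnPGC-1 list, as did 92.8% of all protein-coding genes. The reverse, at least 2 times as many in the DMSO list, held at 0 of 7 genes and 0.268% of all. A ratio above the 4.00 of the whole lists was seen at 4 of 7 genes and at 49.5% of all genes. The median ratio was 4.51 over the 7 genes and 3.88 over the 19382 genes with DMSO bases. With these loci Myb and Tcf7 had the highest ratios of the 7, and Lef1 the lowest, but the order depended on the flank. In the gene bodies alone Tcf7 had the highest ratio, followed by Bcl6 with 11.1 and Myb with 7.08, and Id3 the lowest, 1.31. With flanks of 10 kb Tcf7 had 13.8, Myb 9.23 and Klf2, then the lowest, 2.36. With flanks of 100 kb Myb had 9.98, Tcf7 5.60 and Lef1, again the lowest, 3.61.

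In percent of the locus covered, Id3 had 27.7% with EnPGC-1 and 7.56% with DMSO, Klf2 27.5% and 6.09%, and Tcf7 25.7% and 3.21%. Lef1 had 17.1% with EnPGC-1 and 5.60% with DMSO. Bcl6 had 10.7% and 2.02%, Bach2 8.87% and 2.30%, and Myb 8.03% and 0.238%, in the same order of lists. The medians over all genes were 8.44% and 2.02%. The 3 highest genes were thus close together with EnPGC-1 and apart with DMSO, where Tcf7 had a lower share than Lef1. By rank among all genes, Tcf7 stood at percentile 82.5 with EnPGC-1 and 61.3 with DMSO. Myb stood at 48.6 with EnPGC-1 and 12.3 with DMSO. Id3 stood at 85.1 and 85.7, and Lef1 at 69.0 and 76.6, so these genes kept nearly their place or stood lower in the EnPGC-1 list. With no replicates, no neighbours in this order can be said to differ.

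**Figure D2:**
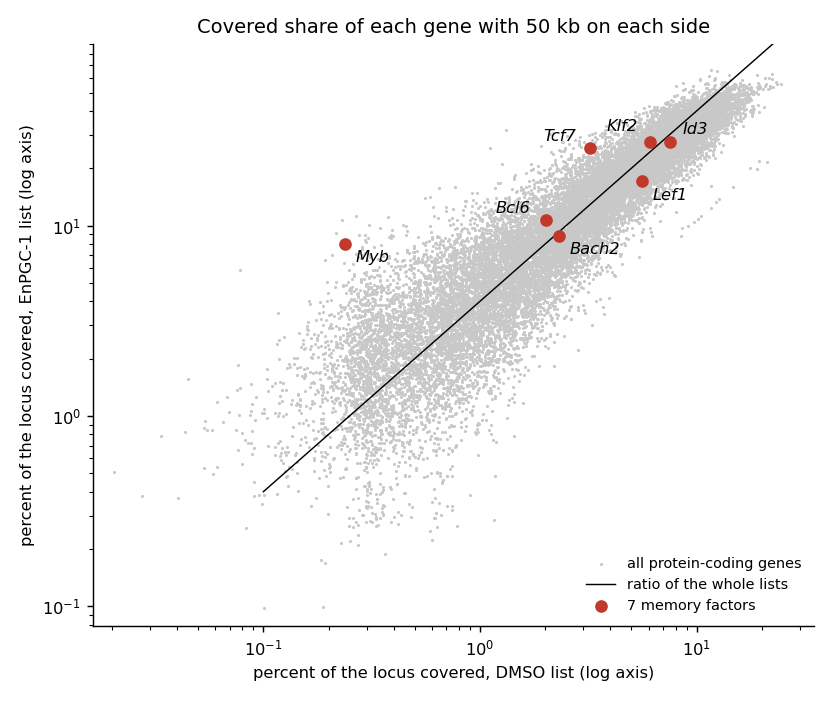
Percent of each locus (gene and 50 kb on each side) covered in the EnPGC-1 list (y axis) and the DMSO list (x axis), both on log axes. Grey points are the protein-coding genes with covered bases in both lists, red points the 7 memory factor genes, and the line is the ratio of the whole lists. Myb and Tcf7 lie farthest above the line, and Lef1, Id3 and Bach2 lie below it.

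Tcf7 lies on chromosome 11 from 52246527 to 52283383, on the minus strand. Its locus held 45 EnPGC-1 and 10 DMSO intervals, which covered 35111 and 4398 bases, a ratio of 7.98. This ratio stood at percentile 92.5 of all genes with DMSO bases. Within the gene body the EnPGC-1 list covered 42.5% and the DMSO list 3.27%. The widest interval of the 7 loci was an EnPGC-1 interval inside Tcf7, 4083 bp from 52258509 to 52262591. It overlapped a DMSO interval of 608 bp at its edge, from 52262126 to 52262733. Upstream of the gene the EnPGC-1 list covered 32.2% of the 50 kb and the DMSO list 5.04%. The highest score of the locus in the EnPGC-1 list, 8.59, belonged to an upstream interval from 52328291 to 52328943, which overlapped no DMSO interval. When neighbouring intervals were joined across gaps no longer than those usual in super-enhancer calling, the longest EnPGC-1 stretch ran 79.6 kb over most of the gene and its upstream flank and joined 39 intervals. The longest DMSO stretch ran 27.9 kb and joined 5.

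Lef1, the other factor of the TCF-1 family here, lies on chromosome 3 from 131110297 to 131224357, on the plus strand. Its locus held 59 EnPGC-1 and 20 DMSO intervals, which covered 36524 and 11978 bases. The ratio of 3.05 stood at percentile 24.9. EnPGC-1 intervals met 15 of the 20 DMSO intervals, near the 73.7% of the whole DMSO list. The gene body was covered to 19.8% with EnPGC-1 and to 6.08% with DMSO. The highest EnPGC-1 score, 7.10, was that of the interval next to the start, and the highest DMSO score, 4.00, that of an interval near the 3′ end of the gene, from 131221295 to 131221777. The widest DMSO interval of all 7 loci, 1790 bp from 131105953 to 131107742, lay upstream of Lef1 in the lncRNA gene Gm36603. There the EnPGC-1 list had a pair of narrower intervals and covered 1400 bases of Gm36603, against 1790 in the DMSO list. Lef1 and Tcf7, genes of one factor family, therefore lay on either side of the ratio of the whole lists.

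Id3 and Klf2 are short genes, 1571 bp and 2593 bp long, so that most of their loci is flank. Id3, on chromosome 4 from 136143822 to 136145392, held 36 EnPGC-1 and 14 DMSO intervals, with 28087 and 7674 covered bases and a ratio of 3.66. Of its gene body 73.8% was covered with EnPGC-1 and 56.5% with DMSO, which made the body the place of the smallest relative difference in the 7 loci. The 50 kb upstream of Id3 were covered to 28.6% with EnPGC-1 and 3.58% with DMSO, and the 50 kb downstream to 25.3% and 9.99%. The widest EnPGC-1 interval there, 2243 bp from 136133992 to 136136234, and the one with the highest score, 7.68 from 136125359 to 136126559, both lay upstream and overlapped no DMSO interval. Klf2, on chromosome 8 from 72319062 to 72321654, held 44 EnPGC-1 and 11 DMSO intervals, with 28198 and 6253 covered bases and a ratio of 4.51. Its density of 42.9 EnPGC-1 intervals per 100 kb was the highest of the 7 loci. The interval with the highest EnPGC-1 score of the Klf2 locus, 9.06 from 72341293 to 72342369, lay in the neighbouring gene Eps15l1 and overlapped a DMSO interval. The highest DMSO score, 4.76, lay 4.08 kb downstream of the Klf2 start, from 72322815 to 72323468, and was also in both lists. At both genes the EnPGC-1 intervals joined in this way into a single stretch over the locus, of 101 kb, whereas the DMSO intervals fell into 4 stretches at Id3 and 3 at Klf2. Only intervals of a locus were joined, and these loci are 101.6 kb and 102.6 kb long, so the stretches have about the full width. Joining was not done at other genes, and its outcome moves with how many intervals each list holds.

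Bach2 lies on chromosome 4 from 32238413 to 32586109 and, at 348 kb, is the longest of the genes. Its locus held 70 EnPGC-1 and 22 DMSO intervals, with 39715 and 10319 covered bases and a ratio of 3.85, at percentile 49.1 of all genes. All 22 DMSO intervals lay inside the gene body, and both flanks were empty in the DMSO list. The flanks had 6 EnPGC-1 intervals upstream and 4 downstream. The highest EnPGC-1 score of the 7 loci, 10.6, lay in the body of Bach2 from 32501575 to 32502036 and overlapped a DMSO interval. The highest DMSO score of the 7 loci, 7.32, also lay there, from 32483788 to 32484422, and overlapped no EnPGC-1 interval. That DMSO interval scored higher than 99.7% of its list. EnPGC-1 intervals missed 8 of the 22 DMSO intervals at Bach2 and met 14, beside 73.7% met in the whole DMSO list. No other locus had as many missed, but Bach2 also held the most DMSO intervals of the 7 loci. At Myb the single DMSO interval was missed. Around the listed start the EnPGC-1 list left a stretch of 39.2 kb without an interval, from 32387338 to 32426491. The longest empty stretch of the DMSO list, 95.9 kb from 32256677 to 32352532, lay elsewhere in the gene. Near the 3′ end an EnPGC-1 interval of 1907 bp from 32561307 to 32563213, the widest at Bach2, lay in the antisense-named lncRNA gene Bach2os, where the DMSO list also had intervals. H3K27ac intervals carry no strand, so those at Bach2os are counted for both genes.

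Bcl6 lies on chromosome 16 from 23965050 to 23988866, on the minus strand. Its locus held 19 EnPGC-1 and 6 DMSO intervals, with 13297 and 2501 covered bases and a ratio of 5.32. The gene body took up the larger part of the difference, with 9 EnPGC-1 intervals covering 27.2% and 1 DMSO interval covering 2.45%. The highest EnPGC-1 score, 9.06, lay in the body from 23972561 to 23973135 and overlapped no DMSO interval. Upstream of the gene the EnPGC-1 list had 2 intervals besides the one over the start, and the DMSO list had none. The interval over the start also lies in Gm31527, an lncRNA gene that overlaps this end of Bcl6, so it is counted for both. The EnPGC-1 list left 23.6 kb upstream of the gene empty, from 23988889 to 24012489.

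Myb lies on chromosome 10 from 21124930 to 21160984, on the minus strand, and stood apart in the DMSO list. Its locus held 18 EnPGC-1 intervals with 10928 covered bases, against 1 DMSO interval of 324 bases and a score of 1.76. The ratio of intervals was that of these counts, 18 to 1, with an exact interval of 2.84 to 749.96, and that of covered bases, 33.7, stood at percentile 99.96 of all genes with DMSO bases. It was 7.08 in the gene body, 9.23 with flanks of 10 kb and 9.98 with flanks of 100 kb, where the DMSO list had 1632 bases. The Myb interval of the DMSO list scored higher than only 20.9% of that list and overlapped no EnPGC-1 interval, so the locus had no base in common between the lists. The EnPGC-1 intervals were not rich in the gene itself: 4 lay in the body, covering 6.36%, 5 upstream and 9 downstream. Among the 4 in the body was the one with the highest score of the locus, 9.82, from 21145056 to 21145501. The 9 downstream intervals lay from 21076686 to 21104676, and the outer 2 of them lay in or reached into the gene Ahi1.

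**Figure D3:**
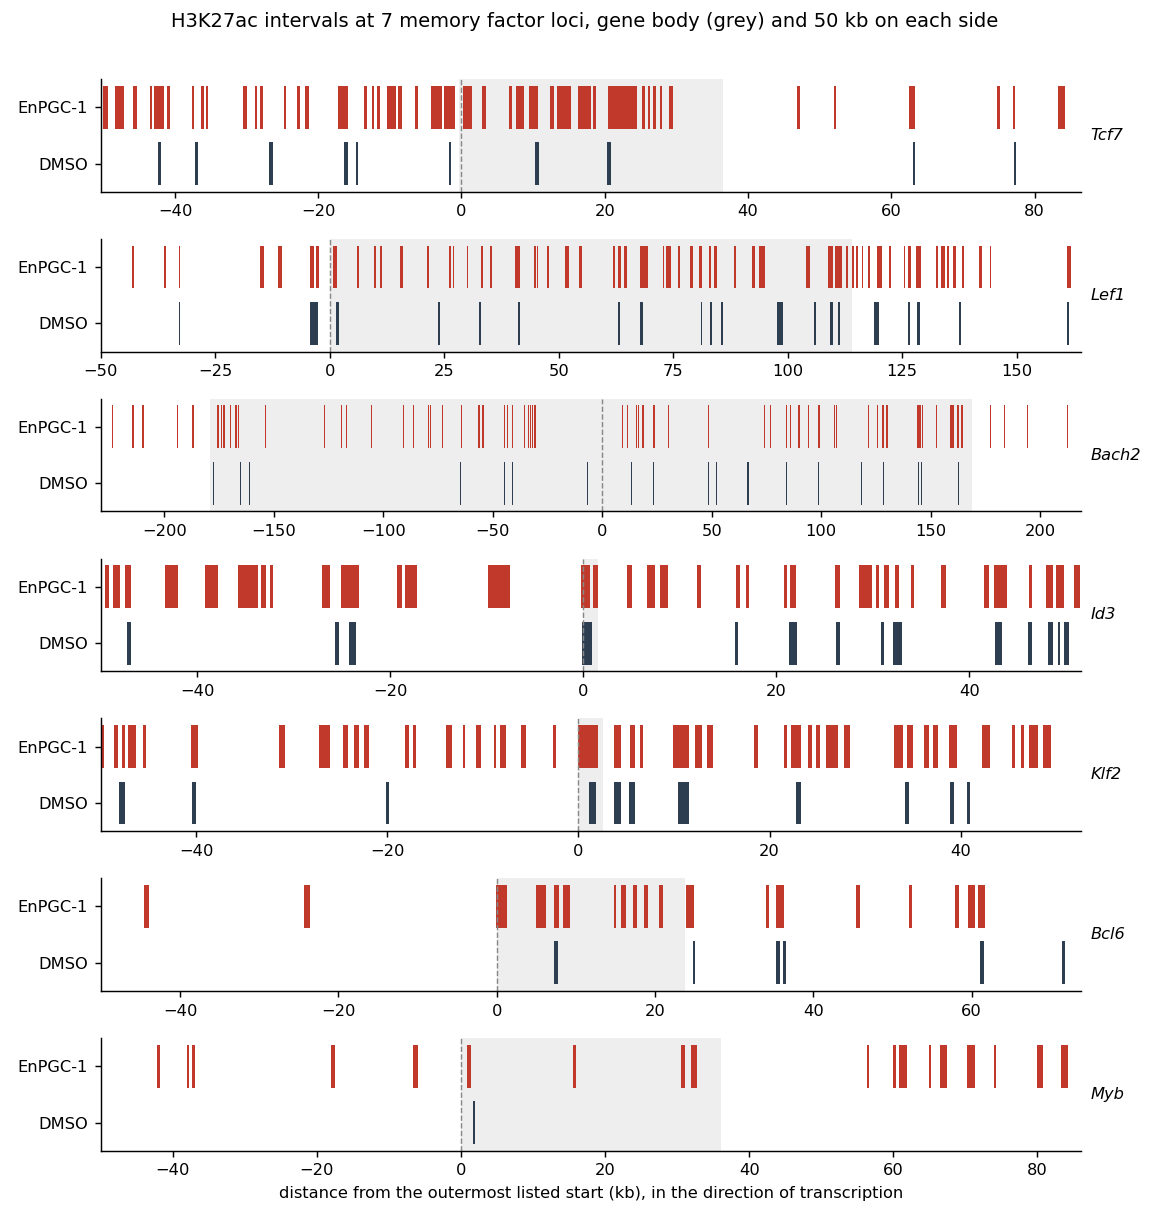
Listed H3K27ac intervals over the 7 loci, with the EnPGC-1 list above the DMSO list in each panel and the gene body in grey. The x axis is distance in kb from the outermost listed start, in the direction of transcription, with its own scale in each panel. EnPGC-1 intervals spread over body and flanks at Tcf7, Id3 and Klf2, and the Myb panel has a single DMSO interval.

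By place, the upstream flanks held the largest relative difference in the sum over the 7 genes, but not at each gene. In that sum EnPGC-1 intervals covered 14.8% of the 50 kb upstream and DMSO intervals 2.23%, a ratio of 6.64. The ratio was 4.06 in the gene bodies, with 15.2% and 3.73%, and 3.74 in the downstream flanks, with 15.6% and 4.18%. The EnPGC-1 list thus covered nearly the same share of all 3 places, and the DMSO list least upstream. In the DMSO list 3 upstream flanks, those of Bach2, Bcl6 and Myb, had no covered base. The upstream ratio was above that of the gene body at Id3 and Klf2, and below it at Tcf7 and Lef1. At Lef1 the upstream flank had 8.87% with EnPGC-1 and 4.18% with DMSO, and the body 19.8% and 6.08%. The ratios by place were not counted over all genes.

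Intervals were counted as common to both lists where they overlapped by 1 bp or more. At the loci 60 of the 291 EnPGC-1 intervals and 61 of the 84 DMSO intervals were common. As shares these were 20.6% (16.1 to 25.7, exact Clopper-Pearson interval at 95%) of EnPGC-1 intervals and 72.6% (61.8 to 81.8) of DMSO intervals. The whole lists had 23.1% and 73.7%, both within these bounds. The bounds cover counting error only and take neighbouring intervals as independent, so they do not test the loci against the lists. By locus, the common EnPGC-1 intervals ran from 0 of 18 at Myb to 11 of 36 at Id3. The common EnPGC-1 intervals were wider than those in the EnPGC-1 list alone, with medians of 774.5 bp and 475 bp. Their median score was 4.21, against 3.64 for those of the EnPGC-1 list alone. In the DMSO list the medians of the common intervals and of those in that list alone were 487 bp and 389 bp in width, and 2.58 and 2.16 in score. Of the 7 intervals with the highest EnPGC-1 score at each locus, 4 overlapped no DMSO interval, those at Tcf7, Id3, Bcl6 and Myb. In the DMSO list the top intervals of Tcf7, Bach2 and Myb overlapped no EnPGC-1 interval.

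The deposited score, taken to be -log10 of a q-value, stayed far below the maximum of each whole list at these loci, though its medians were not lower. Scores ran from 1.31 to 10.6 with EnPGC-1 and from 1.36 to 7.32 with DMSO, whereas the whole lists reached 540.7 and 178.7. The median at the loci was 3.69 in the EnPGC-1 list, beside 3.64 in the whole list, and 2.54 in the DMSO list, beside 2.16 in the whole list. Each list has its own score scale, so scores of the 2 lists are not compared.

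**Figure D4:**
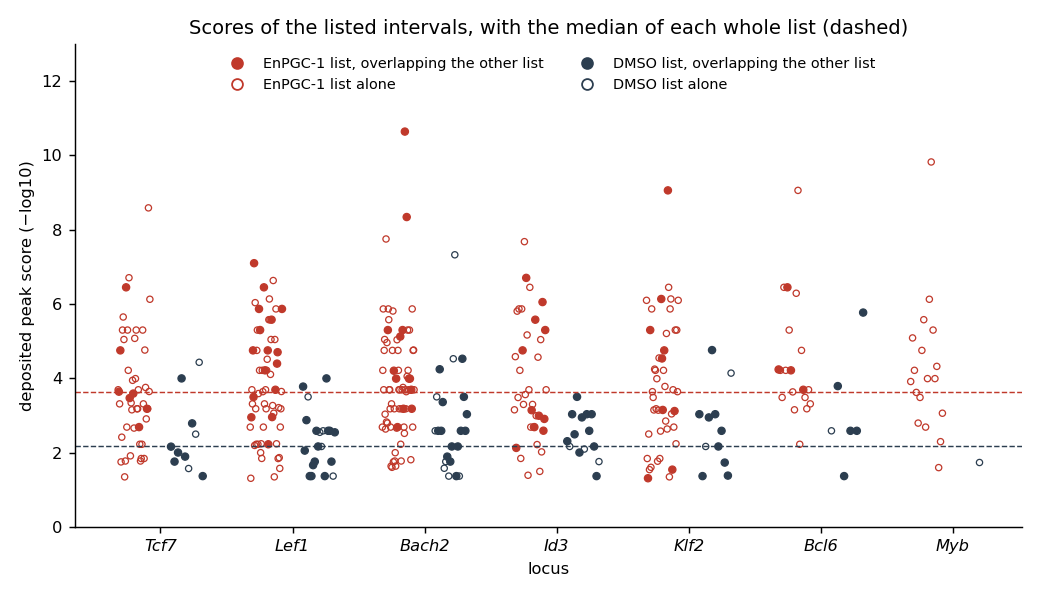
Deposited peak score (-log10 scale, y axis) of every listed interval at the 7 loci (x axis), with the EnPGC-1 list in red left of the DMSO list in dark blue. Filled circles overlap an interval of the other list, open circles do not, circles are spread sideways in order of position, and dashed lines are the medians of the whole lists. Most loci have their scores on both sides of the medians, and the single Myb point of the DMSO list lies below its median.

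The excess of covered bases remained at all 7 genes when both lists were cut to the same number of intervals, though it was smaller. Keeping the 81522 intervals with the highest scores in each list left the ratio at 1.83 over the 7 loci, beside 1.65 for the whole lists. The EnPGC-1 list then covered more bases at 7 of 7 genes, as it did at 74.8% of all genes, and the DMSO list did at 20.2%. Myb had 4195 bases with EnPGC-1 and 324 with DMSO, a ratio of 12.9. Tcf7 had 14363 and 4398 bases, a ratio of 3.27, and Klf2 13518 and 6253 bases, a ratio of 2.16. Bcl6, Id3, Lef1 and Bach2 had ratios of 1.88, 1.86, 1.31 and 1.25. Those of Lef1 and Bach2 lay below the 1.65 of the whole lists. At the gene starts Tcf7 then lost its EnPGC-1 interval, while Klf2 and Myb kept theirs. The share of all genes marked at the start was not counted with equal numbers. Equal numbers leave the DMSO list whole and take from the EnPGC-1 list what scored below 4.21 and part of the intervals tied at 4.21. Of the tied intervals the widest were kept, so the EnPGC-1 covered bases are as large as the ties allow. How much of the excess rests on these ties was not counted.

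**Figure D5:**
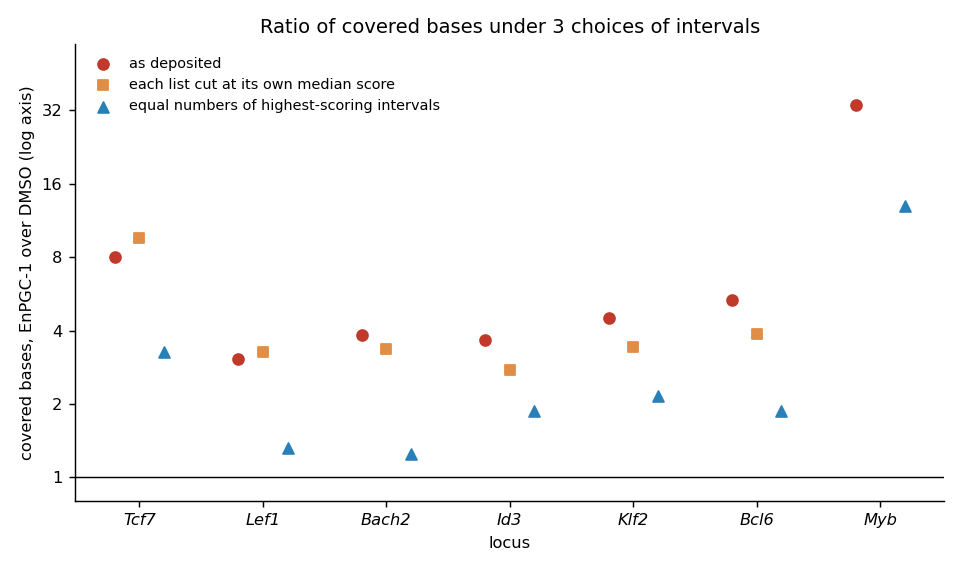
Ratio of covered bases, EnPGC-1 over DMSO (log y axis), at each locus with the lists as deposited (circles), each cut at its own median score (squares), and cut to equal numbers of intervals (triangles). The horizontal line marks a ratio of 1, which lies below every point. The whole lists had a ratio of 4.00 as deposited and 1.65 with equal numbers. Myb has no square because no DMSO interval was left there.

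Other genes of naive and memory cells had a median ratio of 4.25, beside 4.51 for the 7 factors and 3.88 for all genes. Of 24 such genes, 24 had covered bases at least 2 times as many with EnPGC-1 as with DMSO, beside 92.8% of all genes, and 15 had a ratio above 4.00, beside 49.5%. The median share covered was 6.35% with EnPGC-1 and 1.41% with DMSO, below the 17.1% and 3.21% of the 7 factors. The largest ratios were at Gfi1, which encodes a transcriptional repressor of blood cells, and at Cxcr3, which encodes a chemokine receptor. Gfi1 had 12 EnPGC-1 and 2 DMSO intervals, a ratio of 6.00 (1.34 to 55.2), and 12.2 times the covered bases. Cxcr3 had 10 EnPGC-1 and 2 DMSO intervals, a ratio of 5.00 (1.07 to 46.9), and 7.31 times the covered bases. The smallest ratio, 2.07, was at Foxo1, the gene of a factor known to maintain Tcf7 and Klf2 expression. Il7r, which encodes the IL-7 receptor alpha chain, had 7 EnPGC-1 intervals and no DMSO interval. Of the 15 genes with a listed start, 10 were marked there with EnPGC-1 and 7 with DMSO, beside 67.3% and 33.5% of all genes.

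Factors of effector and exhausted cells had a median ratio of 3.81, near the 3.88 of all genes. At least 2 times as many covered bases with EnPGC-1 were seen at 12 of 12, beside 92.8% of all genes, and a ratio above 4.00 at 5 of 12, beside 49.5%. The median share covered was 9.88% with EnPGC-1 and 3.23% with DMSO. Zeb2 and Tox had the largest ratios, 8.74 and 6.90, each with 11 EnPGC-1 and 2 DMSO intervals, a ratio of intervals of 5.50 (1.20 to 51.1). Irf4, a factor induced by T cell receptor signals, had the smallest at 2.39. At the start 11 of 11 genes were marked with EnPGC-1 and 6 with DMSO, read against the same 67.3% and 33.5%. The difference between these lists of genes and the 7 factors was not tested.

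The markers of the labelled cell type were listed, but those of B cells were listed more widely. The coreceptor genes Cd8a and Cd8b1 had 7.88% and 9.37% of their loci covered with EnPGC-1 and 1.03% and 1.44% with DMSO. Over 6 CD8 T cell markers the medians were 6.25% with EnPGC-1 and 1.30% with DMSO. Of 5 with a listed start, 4 were marked with EnPGC-1 and 2 with DMSO, again beside 67.3% and 33.5% of all genes. Over 6 B cell markers the medians were 23.0% and 5.42%, in a range of 0.610% to 38.1% with EnPGC-1 and 0% to 8.57% with DMSO, with Ms4a1 at 0 in the DMSO list. Of 3 B cell markers with a listed start, 3 were marked with EnPGC-1 and 1, Cd79a, with DMSO. The starts of 3 NK markers and 2 myeloid markers had no interval in either list. Of 3 erythroid markers with a listed start, 2 were marked with EnPGC-1 and 0 with DMSO. Of 2 markers of CD4 and regulatory T cells with a listed start, 2 were marked with EnPGC-1 and 1 with DMSO. All these counts are read against the same 67.3% and 33.5%. The median share covered was 24.3% with EnPGC-1 and 4.69% with DMSO over 3 markers of CD4 and regulatory T cells, and 18.7% and 4.71% over 3 erythroid markers. It was 8.73% and 0.873% over 5 myeloid markers, and 2.42% and 0% over the 3 NK markers. The share of a locus covered is not a measure of expression, and what part other cell types have in the intervals at Bach2, Bcl6 and Myb was not tested.

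The genes whose pair of covered shares lay nearest to those of each factor, over the 2 lists, lay on other chromosomes than the factor itself. They were Hirip3 for Tcf7, Synm for Lef1, Sipa1l1 for Bach2, Cd74 for Id3, Numbl for Klf2, Acsl1 for Bcl6 and Snrnp48 for Myb. Their distances ran from 0.0341 to 0.180 percentage points. Snrnp48, for example, had 8.19% of its locus covered with EnPGC-1 and 0.299% with DMSO, beside 8.03% and 0.238% at Myb.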

How the data were processed

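H3K27ac ChIP, IgG ChIP and input DNA were sequenced from mouse CD8+ T cells given EnPGC-1 or DMSO. Groups follow the labels. MACS2 2.2.2.20160309, ChIPseeker 11.16.1, Bowtie 1.1.2, Trimmomatic 0.38, Picard 0.118 and mm10 are named in the submitters' processing notes. The sources used here do not give parameters, control or pooling of samples. The authors deposited 1 headerless peak list per treatment, with a score read as −log10 of a q-value, since the lowest values, 1.31, lie just above the −log10 of 0.05.

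Entries repeating an interval were combined (329623 EnPGC-1 entries and 84538 DMSO entries), keeping the highest score. Genes, starts and promoters came from RefSeq tables of GRCm38.p6, without exons. All 7 genes matched. Of the 7 CD8 T cell markers 1 did not match. Called means at least 2 times the covered bases. Shares and ratios of interval counts have exact 95% binomial intervals for counting error only. Python 3.11.15, pandas 2.3.3 and scipy 1.17.1 were used. Coverage was tested on 200 simulated lists, with 0 errors.

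The genes and lists were chosen with earlier results of these data known. Named at each locus were the intervals of highest score and greatest width and those at the start, the longest joined stretch, and of each comparison list the 2 largest ratios and the smallest. Statements outside that rule, such as those on Gm36603 and Il7r, were chosen after the values were seen. Alternatives varied score, number, width, merging, flank, window, overlap and members.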

Additional observations from a re-analysis of the deposited data

How the results depend on the processing

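Over the 7 loci the ratio of covered bases stayed above 1 under every alternative tried. It was 1.83 with equal numbers of highest-scoring intervals, which by construction drops EnPGC-1 intervals only. It was 6.01 with intervals under 500 bp left out, and from 3.94 to 5.18 under the others. Staying above 1 does not set these loci apart, because the whole lists had a ratio of 4.00 as deposited and 1.65 with equal numbers. The same holds for the direction at single loci. Ratios of the whole lists were not counted with the median cut, the width cut or merging. The share of EnPGC-1 intervals that overlapped a DMSO interval was 15.3% with intervals below the median score of their list left out, 29.7% with equal numbers, 15.6% without intervals under 500 bp, 30.1% with intervals within 1000 bp merged and 10.7% when 50% of the interval had to overlap. The share of DMSO intervals was 46.3% with the median cut, 36.9% with equal numbers and 60.7% with 50% overlap. The starts marked in the DMSO list numbered 6, every gene but Bach2, with a window of 2500 bp, against 3, and 1, that of Id3, when only the 5′ end of the whole gene counted as start. Bach2 was judged in the wider window by a listed start far inside the gene. From its 5′ end the nearest interval lay 1063 bp away with DMSO and 3320 bp away with EnPGC-1. Those in the EnPGC-1 list numbered 5 or 6 throughout. Shares of all genes were counted only with the 1 kb window and the lists as deposited, so these counts have no background beside them. Of 62 differences in covered bases at single loci under the alternatives, 0 changed direction, and 21 moved, their ratio shifting by over 1.5 times or no DMSO base being left. Those with the Bach2 locus left out are among the 62 and could not move, because leaving it out changes no other locus. At Id3 the difference was 272 bases with no flank, against 20413. The lowest ratio was that of Id3 with the median cut (2.77) and that of Bach2 with equal numbers (1.25). Leaving out bases in other protein-coding genes, the 5′ end as start and the midpoint rule were added after the data were seen. Counted as deposited entries, the loci held 389 EnPGC-1 and 87 DMSO entries.

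No paired analysis was possible because each treatment has 1 deposited list and the replicate numbers carry no values. With unknown depth and 1 list per treatment, a larger covered share in the EnPGC-1 list cannot be told apart from more having been called in it.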

Other observations

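Several genes beside the memory factors held part of the listed intervals. Hadh, which encodes a dehydrogenase of mitochondrial fatty acid oxidation, lies downstream of Lef1 on chromosome 3. It held 11 EnPGC-1 and 4 DMSO intervals, with 6467 and 1938 covered bases, and its start was marked in both lists. E2f2, the gene of a cell cycle factor downstream of Id3, held 13 EnPGC-1 and 8 DMSO intervals, with 8341 and 3757 covered bases, and its start was marked in the EnPGC-1 list alone. Eps15l1, which encodes an endocytic adaptor and lies next to Klf2, held 29 EnPGC-1 and 8 DMSO intervals, with 20150 and 3544 covered bases over the whole gene. Ahi1, downstream of Myb, held 16 EnPGC-1 and 3 DMSO intervals, with 8104 and 1279 covered bases, so the near absence of DMSO intervals at Myb did not extend over the whole of that gene. Skp1, which overlaps the 3′ end of Tcf7, held 2 EnPGC-1 intervals and no DMSO interval. In all, 63 of the 291 EnPGC-1 intervals and 20 of the 84 DMSO intervals lay in the body of another gene.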
